A study of Mus musculus with 6 samples.

Results

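Of 9 genes of matrix proteolysis examined here, mouse bone marrow cultures made large amounts of 1 transcript, Mmp12, and low or moderate amounts of the 8 others. The 9 genes are 4 matrix metalloproteinases (Mmp12, Mmp13, Mmp14 and Mmp19), 3 tissue inhibitors of metalloproteinases (Timp1, Timp2 and Timp3), the urokinase gene Plau and its receptor gene Plaur. They were taken by symbol from the 57132 genes of the count table, and all 9 were found. None of the 8 genes that could be tested passed the test between cultures without and with queuine.

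The libraries were mRNA-seq of dendritic cells grown from the femur and tibia marrow of female C57BL/6 mice, 6 to 8 weeks old. Both groups received GM-CSF at 15 ng/mL in medium with 10% dialyzed serum, were fed on days 2 and 4, and gave RNA on day 5. The group called 0Q had no added queuine, and the group called 100Q had queuine at 100 nM, with 3 libraries each. Queuine is the free base that mammals take from diet and microbes and that is built into the anticodon of certain tRNAs. The labels mention plating in triplicate and name no separate animals, so the p-values rest on the spread between these libraries, which may be technical.

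Matrix metalloproteinases are zinc enzymes that are made as inactive precursors and cut proteins of the extracellular matrix. TIMPs block them by binding the active site. Urokinase cuts plasminogen to plasmin, a broad protease that also activates several metalloproteinase precursors, and its receptor holds it at the cell surface. Macrophages use these enzymes to move through tissue and to remodel it, and Mmp12, also known as macrophage elastase, is a typical product of macrophages.

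Several of these genes are known to be switched on through AP-1, a dimer of Fos and Jun proteins that binds the element TGANTCA. RefSeq promoter windows (build GRCm38.p6, 250 bases before to 50 bases from the start) were at hand for 7 of the 9 genes, in 8 windows, and each matched GRCm39 exactly at 1 place. Plau and Mmp19 had none. The element, searched on both strands with a palindromic match counted once, lay in 3 windows. The stretches around it are shown with the element in capitals and 20 bases on each side. Only these exact letters were searched, so they tell apart windows with and without the letters, not genes with and without an AP-1 site.
Mmp12, downstream start: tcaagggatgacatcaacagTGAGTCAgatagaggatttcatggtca
Mmp13: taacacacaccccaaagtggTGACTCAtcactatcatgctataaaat
Plaur: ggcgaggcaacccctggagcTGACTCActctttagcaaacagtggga
The Mmp12 stretch lies on the + strand of GRCm39 at chr9:7347310-7347356, inside the Mmp12 gene and outside its annotated exons, with the element at bases -44 to -38 of the downstream of its 2 RefSeq starts. The Mmp13 stretch, at chr9:7272459-7272505 on the + strand, has the element at bases -35 to -29 and lies in no annotated gene. For Plaur the stretch is at chr7:24161819-24161865 on the + strand, with the element at bases -69 to -63, and it too lies in no annotated gene. Of 32851 RefSeq windows of this length, 7.81% held TGANTCA, and 8.97% of the genes with such windows had it. The windows of Mmp14, Timp1, Timp2 and Timp3 and the upstream Mmp12 window held no such letters. The letters TATAAA, found in 13.6% of all windows, lay in the windows of Mmp13 and of the downstream Mmp12 start. They were at bases -16 to -11 for Mmp13 and, past the start, at bases 5 to 10 for Mmp12. These matches describe letters only, and binding was not measured.

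Library totals ran from 3675918 to 6755367 counts in 0Q and from 4484785 to 19386533 in 100Q, the highest being 100Q replicate 3, so its low values are the most precise. Levels are given as CPM, counts scaled by library size and TMM factors, and 3 counts amounted to 0.159 to 0.833 CPM. Of 8 dendritic cell markers, H2-Aa, an MHC class II chain, was at 482 to 666 CPM and Itgax, which encodes CD11c, at 67.6 to 150.0 CPM. H2-Ab1 was at 199 to 239, Cd209a at 30.3 to 54.5 and Ccr7 at 16.7 to 29.2 CPM. Flt3, Zbtb46 and Dpp4 were low, at 0.567 to 5.48, 0.556 to 3.16 and 0.556 to 6.98 CPM, each with a library at or below 3 counts. Of the 8 macrophage and monocyte markers, Lyz2 made up most of the sum, at 16812 to 20505 CPM. Cd68 was at 705 to 1014, Ly6c2 at 565 to 757, Mrc1 at 170 to 246 and Adgre1 at 129 to 194 CPM. Csf1r, Fcgr1 and Mertk were lower, at 31.7 to 47.2, 30.5 to 51.4 and 5.56 to 10.3 CPM. The neutrophil marker S100a9 was at 4754 to 6155 CPM. Summed fibroblast and marrow stroma markers came to 1.05 to 2.59 CPM, with none abundant enough to test. Summed markers of 3 other kinds were lower in all 100Q libraries than in any 0Q library. Endothelium markers had 42.2 to 45.1 CPM in 0Q and 27.4 to 39.8 CPM in 100Q. Nearly all of this came from Pecam1 and Vwf, with means of 16.2 and 22.3 CPM, and for each of them the groups overlapped. Cdh5 and Tek were at 0 and Kdr at 0 to 1.97 CPM, so the sum does not show that endothelial cells were present. Mast cell and basophil markers had 446 to 502 and 340.4 to 439 CPM, and platelet markers 383 to 451 and 349 to 365 CPM. The platelet sum was mostly Pf4, at 358 to 425 and 313 to 339 CPM. Ppbp, another platelet marker, overlapped, with a log2 difference of 100Q from 0Q of 0.10. Of the tested markers of these kinds only Pf4 separated by itself, where 8.24% of all tested genes separated in either direction. B cell markers overlapped, at 20.7 to 28.7 and 19.8 to 22.1 CPM. None of these markers passed the adjusted threshold, and their part in the values of the 9 genes was not tested. In bulk RNA a change in the number of cells of a type cannot be told apart from a change of RNA per cell, and which cells made each transcript was not measured.

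Mmp12 (ENSMUSG00000049723, chromosome 9, 7344381 to 7369499, GRCm39) cuts elastin and other matrix proteins. In 0Q replicates 1, 2 and 3 the level was 19649, 14635 and 18526 CPM; in 100Q, in the same order, 22596, 15533 and 19520.3 CPM. In both groups replicate 2 was lowest, and the groups overlapped. It was the gene with rank 5 in mean CPM among all genes of the table and held 98.8% of the counts of the 9 genes. Group means were 17604 ± 2631 CPM (0Q) and 19217 ± 3541 CPM (100Q; SD, n = 3 each). On the log2 scale the difference of 100Q from 0Q was 0.13 (SE 0.13, 95% interval -0.14 to 0.40, edgeR adjusted p = 0.999), which on the linear scale spans 0.906-fold to 1.32-fold. Between its highest and lowest library the level differed 1.54-fold, a wider ratio than for 91.5% of the 153 genes at 1000 CPM or more, whose median ratio was 1.28. Without 100Q replicate 1 the estimate was -0.01.

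Mmp19 (ENSMUSG00000025355, chromosome 10, 128626773 to 128636695) encodes a metalloproteinase of macrophages and skin that cuts basement membrane proteins. Its levels were 86.1, 48.4 and 61.4 CPM without queuine and 93.3, 58.6 and 65.5 CPM with it, again with replicate 1 high and replicate 2 low in each group. The estimated log2 difference was 0.15 (SE 0.23, 95% interval -0.34 to 0.64, edgeR adjusted p = 0.999). Leaving out 100Q replicate 1 or 0Q replicate 2 turned the sign, to -0.08 and -0.04, and leaving out 0Q replicate 1 gave 0.41. Mmp19 shares 1084 exonic bases with Tmem198b on the opposite strand, which had 27 counts in 0Q replicate 1 and 53 to 588 in the others, and none of the 6 expected counts of Mmp19 was whole. Without known strandedness, reads of the 2 genes cannot be told apart and the Mmp19 values are uncertain.

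Mmp13 (ENSMUSG00000050578, chromosome 9, 7272514 to 7283331), a collagenase of bone and cartilage, was scarce. It had 4.91, 7.76 and 6.94 CPM in 0Q, from 26, 55 and 25 counts, and 12.5, 8.85 and 11.3 CPM in 100Q, from 66, 42 and 213 counts. Its 100Q values were all above its 0Q values. The nearest pair was 0Q replicate 2, with an exact Poisson 95% interval of 5.84 to 10.1 CPM, and 100Q replicate 2, with 6.38 to 11.96 CPM, so that gap was within counting error. The means were 6.54 ± 1.47 and 10.9 ± 1.88 CPM (SD, n = 3 each). The log2 fold change of 0.73 (SE 0.43, 95% interval -0.16 to 1.63) did not pass (unadjusted p = 0.103, adjusted p = 0.999 by edgeR). Osteoclast markers summed to 65.6 to 114 CPM in 0Q and 111 to 121 CPM in 100Q, with Calcr at 0 and all 3 tested markers estimated above 0 (median 0.49). Ocstamp, 1 of the 3, had 0.755, 3.81 and 1.94 CPM without queuine, from 4, 27 and 7 counts. With queuine it had 8.94, 4.63 and 5.07 CPM, from 47, 22 and 96 counts, also without overlap (edgeR unadjusted p = 0.0441, adjusted p = 0.999). All 100Q libraries lay above 0Q in 4.41% of all tested genes. The groups overlapped for Acp5 (log2 difference 0.49, SE 0.42) and Ctsk (0.23, SE 0.19). The part of these markers in the Mmp13 values was not tested.

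Mmp14 (ENSMUSG00000000957, chromosome 14, 54668878 to 54682821) encodes MT1-MMP, a membrane-bound collagenase that with TIMP2 activates the precursor of MMP2. Its levels of 13.0, 11.1 and 5.56 CPM without queuine and 8.36, 4.84 and 10.04 CPM with it overlapped. The highest library was 0Q replicate 1 and the lowest 100Q replicate 2. The log2 estimate for 100Q relative to 0Q was -0.35 (SE 0.46, 95% interval -1.31 to 0.62, edgeR adjusted p = 0.999). Omitting 0Q replicate 3 gave -0.62 and omitting 0Q replicate 1 gave -0.11, the extremes over omitted libraries.

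**Figure D1:**
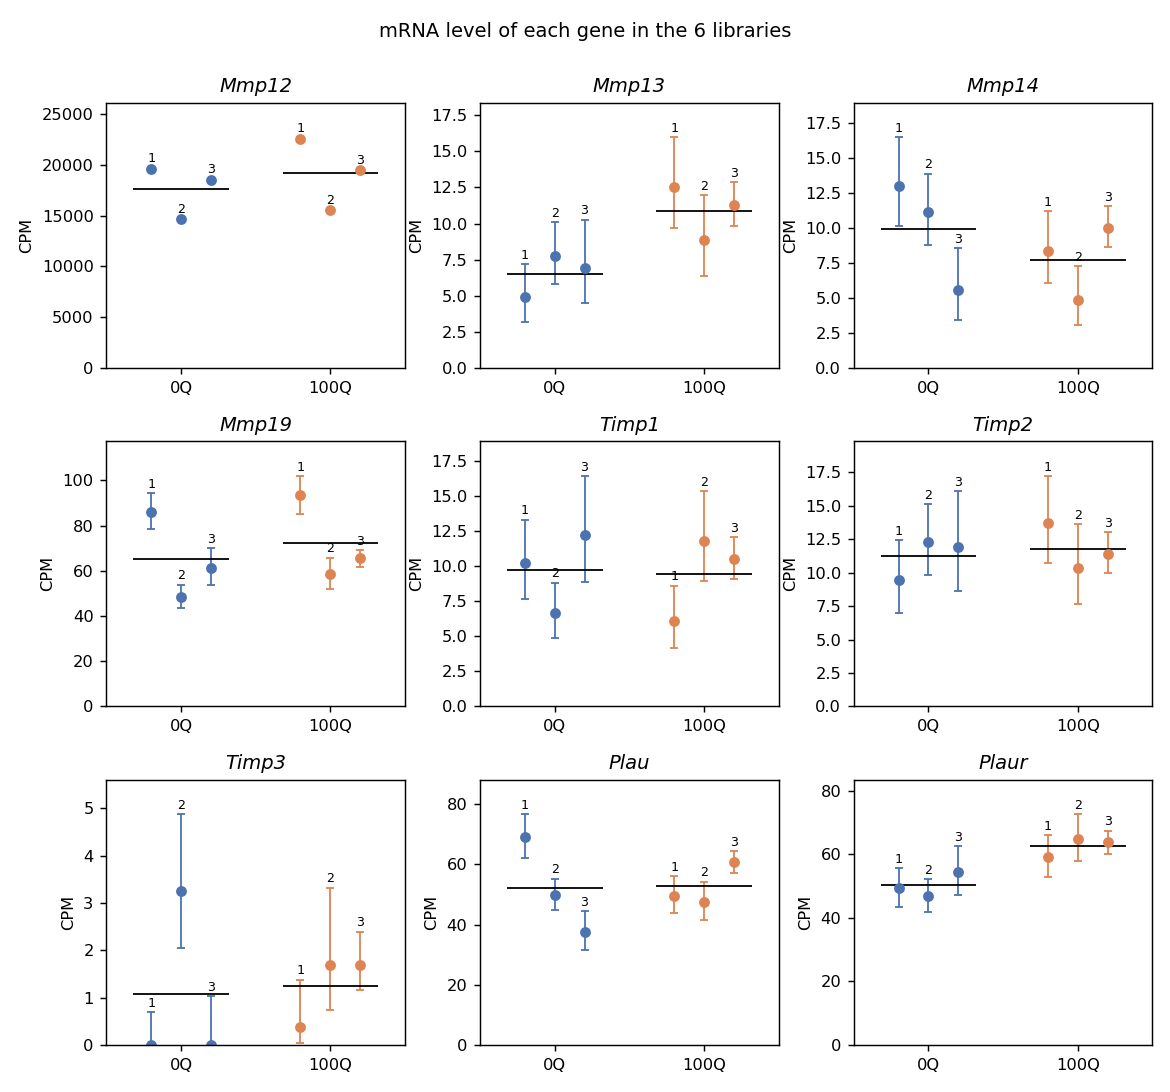
CPM (vertical axis, from 0) of each of the 9 genes in the libraries of 0Q (blue) and 100Q (orange). Points are libraries with their replicate number, bars are exact Poisson 95% intervals of the count, which cover counting error only, and black lines are group means. The 100Q points of Mmp13 and Plaur lie above all 0Q points, and those of the other 7 genes overlap.

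Of the inhibitors, Timp1 and Timp2 were near 10 CPM and Timp3 was close to the limit of detection. Timp1 (ENSMUSG00000001131, chromosome X, 20736316 to 20740976), a secreted inhibitor induced in inflammation, had 10.2, 6.63 and 12.2 CPM without queuine and 6.08, 11.8 and 10.5 CPM with it. Each group had 1 library near 6 CPM, replicate 2 in 0Q and replicate 1 in 100Q. The log2 fold change was -0.02 (SE 0.43, 95% interval -0.93 to 0.89), and its sign was not stable, as it was 0.03 with library totals in place of TMM factors. Timp1 lies within the body of Syn1 on the other strand and shares no exonic bases with it.

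Timp2 (ENSMUSG00000017466, chromosome 11, 118191887 to 118246566) is the broadly expressed inhibitor that also takes part in MMP2 activation. It had 9.44, 12.3 and 11.9 CPM without queuine and 13.7, 10.3 and 11.4 CPM with it, from 43 to 216 counts. The ratio of its highest to its lowest library was 1.45, the smallest among the members after the 1.39 of Plaur. The log2 fold change was 0.07 (SE 0.37, 95% interval -0.71 to 0.85), so changes up to 1.81-fold higher or down to 0.612-fold were inside the interval. Timp2 shares 332 exonic bases with Cep295nl on the same strand, whose 13 counts all came from 0Q replicate 1.

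Timp3 (ENSMUSG00000020044, chromosome 10, 86136236 to 86185371), an inhibitor held in the matrix that also blocks ADAM17, had too few counts to be tested. The counts were 0, 23 and 0 in 0Q and 2, 8 and 32 in 100Q, or 0, 3.24 and 0 CPM and 0.380, 1.69 and 1.69 CPM. All 0Q counts came from replicate 2. A count of 0 allowed up to 0.567 CPM in 0Q replicate 1 and 0.833 CPM in 0Q replicate 3, at 3 counts. Mmp2, the gelatinase A of connective tissue, showed the same concentration in 0Q, at 3.53 CPM in replicate 2 and 0 in the other 2. Timp3 shares 1734 exonic bases with Syn3 on the other strand, which had 5 counts in all 6 libraries together.

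Urokinase and its receptor were transcribed at similar counts. Plau (ENSMUSG00000021822, chromosome 14, 20886722 to 20893453) had 69.1, 49.8 and 37.5 CPM without queuine and 49.6, 47.6 and 60.7 CPM with it. The 0Q libraries held both its highest and its lowest value. The means were 52.1 ± 15.9 and 52.6 ± 7.06 CPM (SD, n = 3 each), and the log2 fold change was 0.01 (SE 0.24, 95% interval -0.48 to 0.51, edgeR adjusted p = 0.999). Omitting 0Q replicate 3 gave -0.17 and omitting 0Q replicate 1 gave 0.27. Plau shares 388 exonic bases with Gm63115, a long noncoding RNA gene on the other strand that was not analysed here.

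Plaur (ENSMUSG00000046223, chromosome 7, 24161875 to 24175394) encodes the GPI-anchored urokinase receptor. It had 49.3, 46.8 and 54.4 CPM without queuine and 59.1, 64.9 and 63.8 CPM with it, from 196 to 1207 counts. All 100Q libraries lay above all 0Q libraries, the nearest being 0Q replicate 3 and 100Q replicate 1, whose exact Poisson 95% intervals of 47.1 to 62.6 and 52.7 to 66.1 CPM overlapped. The means were 50.2 ± 3.89 and 62.6 ± 3.05 CPM (SD, n = 3 each). The log2 fold change of 0.32 (SE 0.19, 95% interval -0.09 to 0.73) did not pass (unadjusted p = 0.116, adjusted p = 0.999 by edgeR). Itgax, which did not pass either (edgeR adjusted p = 0.999), had 123 to 150.0 CPM in 100Q against 67.6 to 115 CPM in 0Q. The summed dendritic markers overlapped (888 to 1049 CPM in 0Q, 924 to 1055 CPM in 100Q). H2-Aa and H2-Ab1 made up most of that sum, with means of 578 and 220 CPM and log2 differences of 0.01 and -0.09. Of the 8 dendritic estimates 6 were above 0, where 50% of all tested genes were, with a median of 0.28. The summed macrophage and monocyte markers overlapped too (18712 to 20786 and 18653 to 22490 CPM), with 4 estimates above and 4 below 0. The part of these markers in the Plaur values was not tested. With 1 library left out the Plaur estimate stayed between 0.27 and 0.38. For both Mmp13 and Plaur the 100Q libraries were above with each of the 4 scalings tried (TMM, library totals, RLE and upper quartile).

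By edgeR's quasi-likelihood test 0 of the 8 tested genes had an adjusted p under 0.05, and 0 had an unadjusted p under 0.05. DESeq2 and limma-voom also called 0 of them, with 0 at an unadjusted p under 0.05. Over all genes both called 0 as well, with 356 and 302 at an unadjusted p under 0.05. Over all 10554 genes tested, 0% passed the adjusted threshold and 2.93% had an unadjusted p under 0.05. Of the 8 genes, 6 had estimates above 0, where 50% of all tested genes did, and the median log2 fold change was 0.10 against 0.00 over all tested genes. The 100Q libraries lay wholly above 0Q in 2 of the 8 genes, against 4.41% of all tested genes, and 0 of the 8 lay wholly below (8.24% of all genes separated in either direction). Those 2 genes, Mmp13 and Plaur, had gaps between the nearest libraries that lay within counting error.

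**Figure D2:**
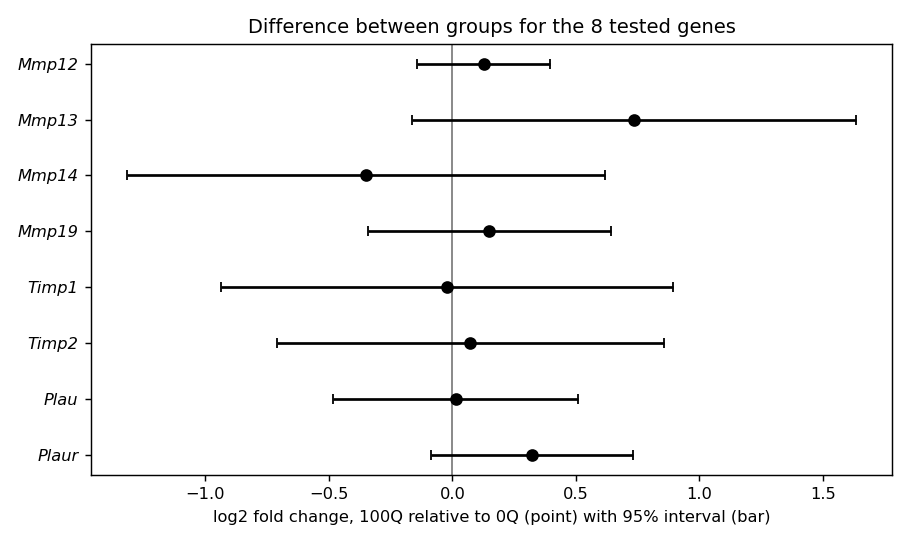
Log2 fold change of 100Q relative to 0Q (horizontal axis) for the 8 tested genes, with edgeR estimates as points and 95% intervals as bars. All 8 intervals include 0, and the interval of Mmp12 is the narrowest and that of Mmp14 the widest.

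**Figure D3:**
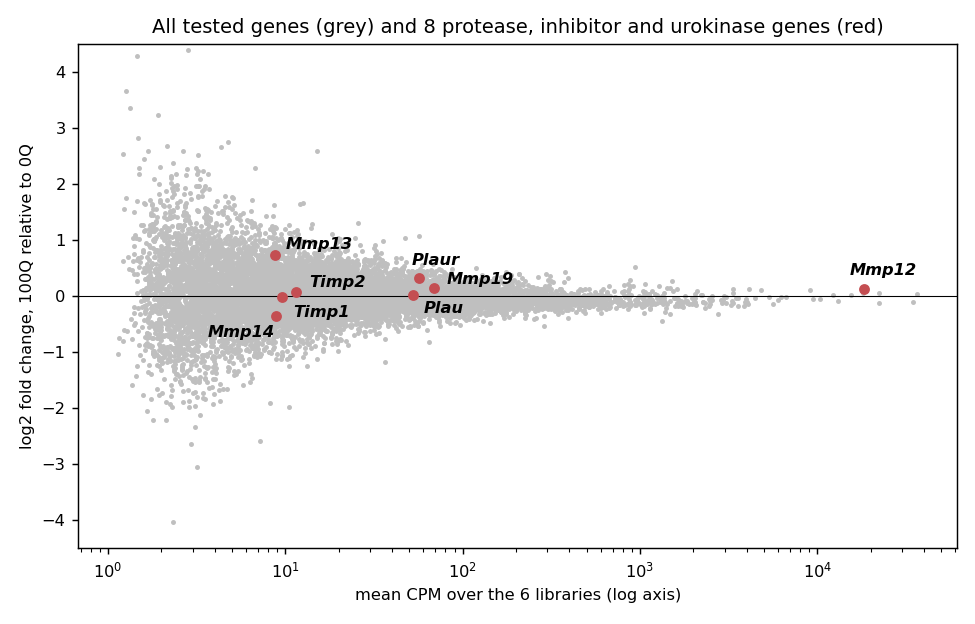
Log2 fold change of 100Q relative to 0Q (vertical axis) against mean CPM over the 6 libraries (horizontal log axis) for the 10554 tested genes (grey) and the 8 named genes (red). The red points lie within the grey cloud at their level, and 1 grey gene lies beyond the vertical limits of 4.5.

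The half-width of the 95% interval was 0.27 for Mmp12, 0.41 to 0.50 for Plaur, Mmp19 and Plau, and 0.78 to 0.97 for Timp2, Mmp13, Timp1 and Mmp14, in log2 units. The median half-width was 0.23 for all genes at 1000 CPM or more, 0.65 from 10 to 100 CPM and 1.36 below 10 CPM. In size, the estimate of Mmp13 exceeded that of 76.4% of the genes below 10 CPM, and that of Plaur exceeded 72.8% of those from 10 to 100 CPM. Those of Timp1 and Plau exceeded only 2.93% and 3.92% of their classes.

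Levels of different genes were set in order as TPM, counts divided by the summed exon length of each gene and scaled to the same total in each library. Mmp12 came first at 5736 ± 827 TPM (SD, n = 6), with rank 31 among all genes. Plau at 46.0 ± 8.43, Mmp19 at 43.8 ± 10.2 and Plaur at 32.0 ± 4.85 TPM followed, and the ranges of neighbours in this trio overlapped over the 6 libraries. The lowest Plaur library, at 25.9 TPM, was above the highest of Timp1, at 14.3 TPM. Timp1 at 11.01 ± 2.91, Mmp13 at 7.42 ± 2.503 and Timp2 at 5.85 ± 0.907 TPM overlapped in turn, Mmp14 stood at 3.22 ± 1.12 TPM, and Timp3 was last at 0.335 ± 0.373 TPM.

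The choice of length moved part of this order. With the length of each gene's canonical transcript, Plaur had 50.001 ± 7.73 TPM and stood above Plau at 30.3 ± 5.54 and Mmp19 at 27.0 ± 6.27 TPM, without overlap with either. Mmp14 then had 4.29 ± 1.48 TPM and overlapped Timp2 at 4.198 ± 0.651 TPM. Mmp12 remained first at 6933 ± 989 TPM and Timp3 last. Whether reads covered whole transcripts evenly is not given in the sources used here, so levels per length are approximate.

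Ratios within a library showed no separation of the groups. On summed exon length the ratio of the receptor Plaur to its ligand Plau was 0.665 ± 0.243 in 0Q and 0.772 ± 0.1004 in 100Q. That of the inhibitor Timp2 to Mmp14 was 1.83 ± 1.02 and 2.26 ± 0.686, and that of Mmp12 to Timp1 was 509 ± 94.1 and 622 ± 340 (SD, n = 3 each). The groups overlapped in each of these ratios.

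**Figure D4:**
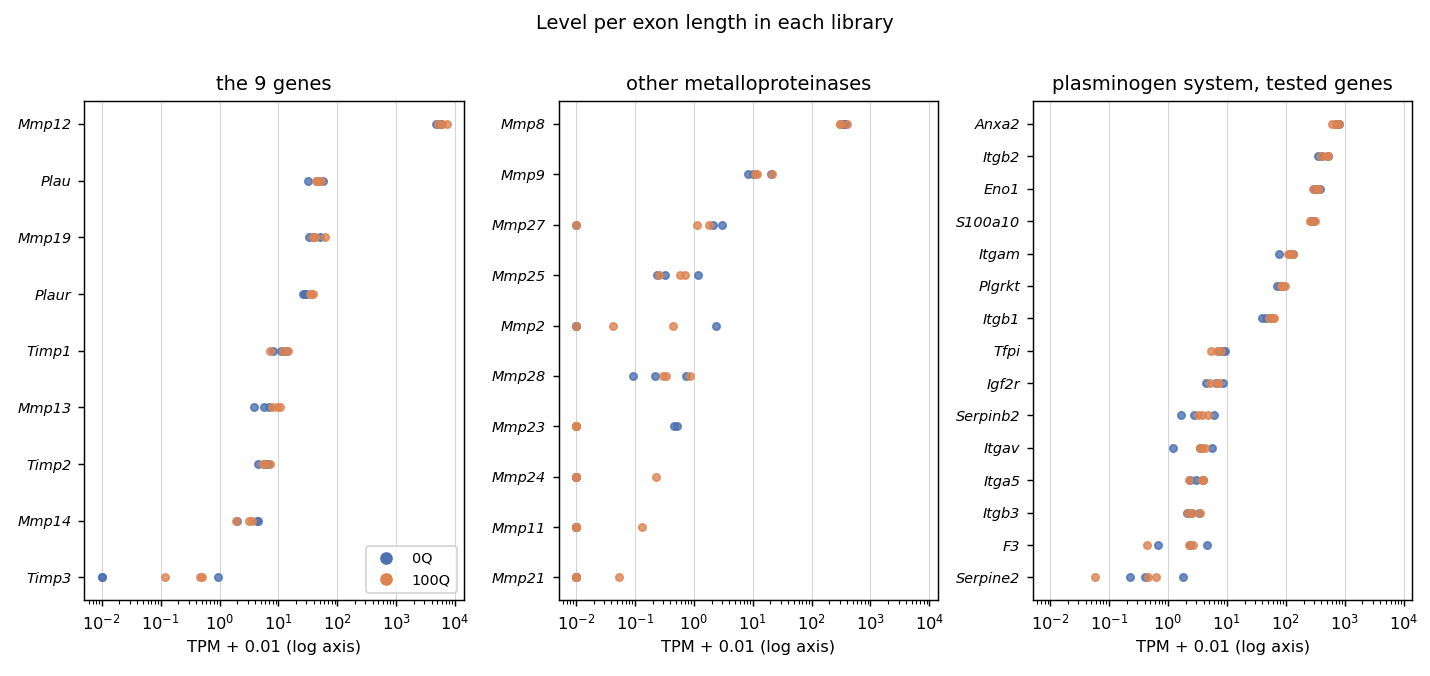
Level per summed exon length, as TPM plus 0.01 on a log axis, of the 9 genes (left), of the other metalloproteinases (middle) and of the 15 tested other genes of the plasminogen system (right), with 1 point per library of 0Q (blue) or 100Q (orange). Points at the left edge are libraries at 0, and genes at 0 in all 6 libraries are left out. Mmp12, Mmp8 and Mmp19 have the highest means among the metalloproteinases.

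Of 19 other metalloproteinase genes, 9 had 0 counts in all 6 libraries and 2 were abundant enough to test. The 9 at 0 were Mmp1a, Mmp1b, Mmp3, Mmp7, Mmp10, Mmp15, Mmp16, Mmp17 and Mmp20, of which Mmp1a, Mmp1b, Mmp3, Mmp7, Mmp10 and Mmp20 belong to the same gene cluster as Mmp12 and Mmp13. A count of 0 in the deepest library allowed up to 0.159 CPM. Mmp1b shares 157 exonic bases with Mmp12 on the other strand, and none of the 6 expected counts of Mmp12 was whole.

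Mmp8, the collagenase of neutrophil granules, had 426, 377 and 378 CPM without queuine and 416, 313 and 331 CPM with it. Its log2 difference was -0.16 (SE 0.13, edgeR adjusted p = 0.999). Neutrophil markers summed to 14468 to 17133 CPM in 0Q and 11992 to 14978 CPM in 100Q. Their estimates were below 0 in 7 of 7, where 50% of all tested genes had estimates above 0, and 0 were called. Camp and Ly6g lay wholly below 0Q in 100Q, where 8.24% of all tested genes separated in either direction. Their edgeR unadjusted p was 0.0062 and 0.0236, and adjusted p = 0.999 for each. The part of the neutrophil markers in the Mmp8 value was not tested. Mmp9, gelatinase B, had 14.9, 32.3 and 16.9 CPM without queuine and 17.3, 32.9 and 19.7 CPM with it. Its highest library in each group was replicate 2, in which Mmp12 was lowest.

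Of 11 other inhibitors, activators and surface partners of metalloproteinases, 7 were tested, with 3 estimates above and 4 below 0, a median of -0.10 and 0 called. Cd63, a tetraspanin that binds TIMP1, had 1195 ± 127 and 1224 ± 104 CPM, and Cd44, a hyaluronan receptor that can dock metalloproteinases, 502 ± 24.8 and 512 ± 8.11 CPM in 0Q and 100Q (SD, n = 3 each). Cd151, another tetraspanin, was at 22.1 to 38.2 CPM. Furin, the convertase that activates MT1-MMP, was at -0.59 (SE 0.60) in log2 difference, and Lrp1, the endocytic receptor that clears urokinase complexes, -0.32 (SE 0.35). Timp4, named here after its values were seen, had 0 counts in all libraries.

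Other genes of the plasminogen system were tested in 15 of 25 cases, with 8 estimates above and 7 below 0, a median of 0.00 and 0 called. Plg, which encodes plasminogen, and Plat, the tissue-type activator, had 0 counts in all 6 libraries, as had Vtn and Mrc2. The 3 most abundant genes of the list encode proteins that can bind plasminogen at the surface or help to. Eno1, an enolase, had 1752 ± 289 and 1656 ± 250 CPM, Anxa2, an annexin, 1702 ± 228 and 1550 ± 248 CPM, and S100a10, its partner, 881 ± 46.8 and 849 ± 115 CPM (SD, n = 3 each). Serpine2, an inhibitor of urokinase, was at -1.31 (SE 0.97) in log2 difference, with 10.4 CPM in 0Q replicate 1 and 0.264 to 3.23 CPM in the other 5. Itgb1, the integrin beta1 chain, had 0.26 (SE 0.15, unadjusted p = 0.103 by edgeR).

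ADAM and ADAMTS proteases are relatives that release proteins from the cell surface or cut matrix. Of 14, 6 were tested, 5 with estimates above 0, a median of 0.17 and 0 called. Adam10 was the most abundant at 639 ± 21.5 and 618 ± 27.6 CPM, Adam8 had 34.0 ± 8.84 and 47.9 ± 10.2 CPM (log2 difference 0.49, SE 0.26, edgeR unadjusted p = 0.0751), and Adam17, which releases TNF, had 27.0 ± 7.07 and 33.6 ± 8.54 CPM (SD, n = 3 each).

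Some matrix proteins are substrates of these enzymes. Of 24 matrix and matrix-bound genes 6 were tested, with 3 estimates above and 3 below 0, a median of -0.03 and 0 called. Eln, which encodes elastin and is named here after its values were seen, had 0 counts in all 6 libraries. Spp1, which encodes osteopontin, a secreted phosphoprotein that metalloproteinases can cut, had 3205 ± 340 and 3506 ± 409 CPM. Thbs1, thrombospondin 1, had 216 ± 49.9 and 249 ± 7.33 CPM, and Tgfbi 73.1 ± 15.6 and 63.0 ± 10.3 CPM (SD, n = 3 each).

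Of 20 AP-1, ETS and related transcription factors 18 were tested, with 9 estimates on each side of 0, a median of 0.00 and 0 called after adjustment. Fos, a subunit of AP-1, had 2.46, 3.10 and 3.33 CPM without queuine, from 13, 22 and 12 counts. With queuine it had 5.70, 8.43 and 9.09 CPM, from 30, 40 and 172 counts. The log2 difference was 1.39 (SE 0.54, edgeR unadjusted p = 0.0188 and adjusted p = 0.999). All 100Q libraries lay above 0Q, as in 4.41% of all tested genes. Etv6, an ETS factor named after its values were seen, also had an unadjusted p under 0.05, with a log2 difference of 0.73 (SE 0.32). Jun and Jund, AP-1 subunits named after their values were seen, were at -0.42 (SE 0.42) and 0.02 (SE 0.60). Junb, the most abundant, had 109 ± 15.4 and 109.9 ± 25.9 CPM, Fosl2, another AP-1 subunit, 63.1 ± 4.22 and 70.4 ± 8.84 CPM, and Cebpb, a factor of myeloid cells, 64.7 ± 16.0 and 61.0 ± 6.80 CPM (SD, n = 3 each).

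The gene most like each member was the one, among tested genes at 50 CPM or more, whose centred log2 values of CPM plus 1 differed least from it over the 6 libraries by root mean square. For Mmp12 it was Il7r, the interleukin 7 receptor chain, at a difference of 0.031 where Mmp12 itself deviated by 0.213 from its mean. Il7r had 144 ± 21.6 CPM (0Q) and 162 ± 28.8 CPM (100Q; SD, n = 3 each). The nearest to Timp2 was Mtap (0.038), to Plau Scamp2 (0.068), to Plaur Mrpl35 (0.072) and to Mmp19 Gask1b (0.098). Mmp13, Mmp14 and Timp1 had no neighbour closer than 0.141 (Ptafr), 0.158 (Aagab) and 0.160 (Gm10108). They also deviated most from their own means, by 0.397, 0.459 and 0.352, against 0.159 for Timp2 and 0.174 for Plaur. The differences therefore do not rank how well members were matched. There were 2272 or 2273 candidate genes for each.

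**Figure D5:**
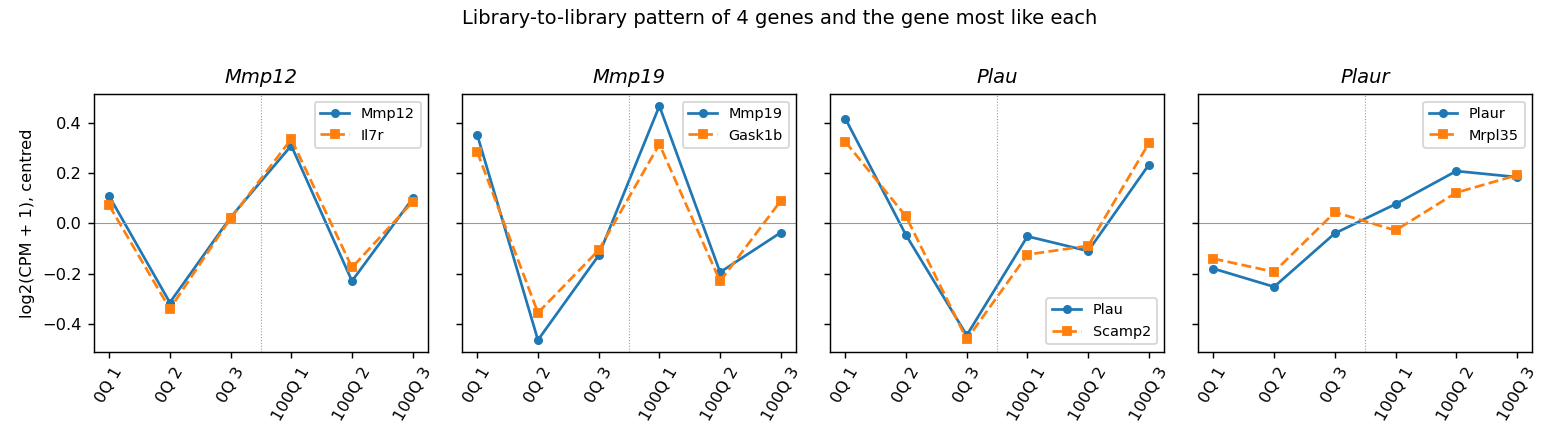
Log2 of CPM plus 1, centred on the mean over the 6 libraries (vertical axis), in each library (horizontal axis) for the 4 members at 50 CPM or more (solid) and the gene most like each (dashed). Mmp12 and Mmp19 are lowest in 0Q replicate 2 and highest in 100Q replicate 1, Plau is highest in 0Q replicate 1, and Plaur is higher in all 3 libraries of 100Q.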

How the data were processed

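The authors deposited RSEM expected counts per gene, not normalized, with 1 column per library; the submitters' processing notes also name STAR, FastQC and the build mm39 (GRCm39). Their versions, annotation release and library strandedness: not given in the sources used here. Symbols and positions came from GENCODE mouse release 39, where 502 of 57132 identifiers had no match. Expected counts were rounded and tested with edgeR 4.0.16 in R 4.3.3 (filterByExpr, TMM, robust glmQLFit, glmQLFTest), with Benjamini-Hochberg adjustment over all tested genes at 0.05, and the same steps were tested on simulated data. Standard errors are the absolute log2 fold change over the root of F. Alternatives used DESeq2 1.42.0, limma 3.58.1, other scalings and filters, the replicate number as a block, thinning of the deepest library and omitted libraries. No 2 libraries agreed within sampling noise.

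The 9 genes and all lists were chosen with earlier results of these data known. From each pathway list the 3 most abundant tested genes and the 2 with the smallest p were named, with untested genes of the metalloproteinase and plasminogen lists, and of marker lists any gene by level. The values of some genes these rules would name are not reported here. Poisson intervals and floors cover counting error only, since reads without molecular identifiers are not independent molecules.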

Additional observations from a re-analysis of the deposited data

How the results depend on the processing

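All settings were planned except 3 chosen after seeing the data: the canonical transcript length, the separation of Mmp13 and Plaur under other scalings, and DESeq2 on all genes with a count. None of the 9 genes passed in any alternative. Over all genes the count was 0 except when 0Q replicate 1 was omitted (Gvin2 and Gm46542 passed, 2 genes) and when 0Q replicate 2 was omitted (Gm2446 passed, 1 gene), a range of 0 to 2; the 3 names were picked after seeing values, and the cause was not tested. The median over the tested members was 0.10; omitting 0Q replicate 2 gave -0.01 and omitting 0Q replicate 1 gave 0.24, with 0.09 to 0.13 in the other settings. Which genes DESeq2 was given was settled after both of its results were seen: on the genes tested by edgeR it gave 356 unadjusted p under 0.05 and Plau at 0.0012; on all 21304 genes with a count it gave 544 and Plau at -0.00155. Timp1 turned to 0.0993 with limma-voom and 0.0288 with library totals alone. With 1 library left out 11 of 48 values of the members changed sign. The ranges were -0.0126 to 0.25 for Mmp12, -0.0782 to 0.41 for Mmp19, -0.25 to 0.20 for Timp1, -0.0475 to 0.15 for Timp2 and -0.17 to 0.27 for Plau, while Mmp13 (0.56 to 0.88), Mmp14 (-0.62 to -0.11) and Plaur (0.27 to 0.38) kept their sign. With canonical transcript lengths the mean TPM was 6933 for Mmp12, 4.47 for Mmp13, 27.0 for Mmp19, 4.198 for Timp2, 30.3 for Plau and 50.001 for Plaur. With the replicate block 0 genes passed, and Mmp12 was at 0.12 (SE 0.07, edgeR unadjusted p = 0.0828). The main fit did not use the numbers as a block because the labels do not say that they pair libraries. Deviations of libraries with the same number correlated across genes at 0.05, 0.19 and -0.06, and 0Q replicate 1 was closest to 100Q replicate 3 (0.23). These weak correlations do not settle whether the numbers pair the libraries. The median half-width of the 95% interval was 1.36 (log2) over the genes below 10 CPM and 0.23 at 1000 CPM or more.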
